A study of Arabidopsis thaliana with 6 samples.

Results

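The genes described here are the core cell cycle regulators of *Arabidopsis thaliana*, namely the A-, B- and D-type cyclins, the cyclin-dependent kinases CDKA and CDKB, the KRP and SIM/SMR inhibitors, the kinase WEE1, and the E2F factors with DEL1 and the retinoblastoma protein RBR1. The 52 genes were listed by family name, by a rule that used no measured value but was written with earlier results of these data known, and were read by their locus identifiers from a table of 24340 genes. Of these, 51 were listed, and 49 averaged 0.5 TPM or more and were among the 18966 genes tested. *CYCA3;3* (AT1G47220) and *CYCD7;1* (AT5G02110) lay below this limit in every sample, at 0 to 0.0173 TPM and 0.0633 to 0.204 TPM, and *SMR5* (AT1G07500) was not analysed here. The RNA came from micro-dissected shoot apices of *ap1, cal* plants in the Col-0 background, 3 samples of mock-treated and 3 of SNP-treated apices. SNP (sodium nitroprusside), a nitric oxide donor that also contains iron, was given at 1 mM for 24 h in the surfactant Silwet, which the mock samples received without it. The *ap1/cal* double mutant forms masses of proliferating inflorescence and young floral meristems in place of flowers, so that such samples hold many meristems and are not a model of a single wild-type apex. The comparison asks how the transcripts of these regulators differed after a day of exposure to the nitric oxide donor.

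Cyclins activate CDKs, and the cyclin bound decides when and on what the kinase acts. D-type cyclins with CDKA phosphorylate RBR1 and so release the E2F factors that switch on the genes for DNA synthesis, A-type cyclins act through S phase and into mitosis, and B-type cyclins with the plant-specific CDKB kinases drive mitosis. KRP and SIM/SMR proteins bind and inhibit the kinases, often where cells leave division for endoreduplication, and in the shoot meristem these genes set how fast cells divide and at what size.

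TPM corrects read counts for gene length and for library size, which is meant to make levels comparable between genes. In the first mock sample a trend along exon length remained, as given below. From the steps between low values, 51879530 to 99089586 reads had been counted on the listed genes per sample, and 99.4% of the values were whole multiples of such a step within 0.05 of a read. The meristem genes *STM* (114 to 137 TPM in mock, 105 to 132 TPM in SNP) and *LFY* (66.3 to 78.7 and 73.0 to 81.2 TPM) were present in every sample. The first mock sample, Mock 1, stood apart from the other mock samples. Its log2 values correlated with theirs at 0.977, against 0.991 between Mock 2 and Mock 3, and in the fifth of genes with the longest exons its median deviation from the gene mean was -0.43 on the log2 scale, against 0.04 to 0.14 in the other samples. Counts of members are therefore also given below without Mock 1. Tests were made with limma on log2(TPM + 0.5), a scale that understates the change of low genes. The p-values set the difference between the groups against the spread within these 3 and 3 samples, moderated over all tested genes.

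Of the 49 tested members, 17 passed the limits of a 1.5-fold change and an unadjusted p under 0.01 with lower values in SNP (34.7%), where 6.40% of all tested genes did. Only *KRP4*, a CDK inhibitor, passed with higher values, against 10.5% of all tested genes. With the adjusted p under 0.05 and no fold limit (limma), 22 members were lower and 2 were higher, against 13.0% and 16.6% of all tested genes. The SNP samples were all below the mock samples for 25 members and all above for 4, against 22.0% and 29.2% of all tested genes, and overlapped for the other 20. The median log2 fold change, SNP minus mock, was -0.55 over the tested members and 0.06 over all tested genes. In bulk tissue, fewer dividing cells and less of a transcript per cell cannot be told apart. Without Mock 1, 26 members passed with lower values, 16 of them among the 17, against 7.43% of all tested genes, and *KRP4* still passed with higher values, against 9.35%. With the adjusted p under 0.05 (limma), 33 members were then lower and 4 higher, against 21.1% and 20.7% of all tested genes, and the medians were -0.63 over the members and -0.01 over all tested genes. Across all tested genes, 62.1% of those past the limits were higher in SNP, and 51.3% when TPM was scaled to the 75th percentile, under which 24 members passed with lower values.

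**Figure D1:**
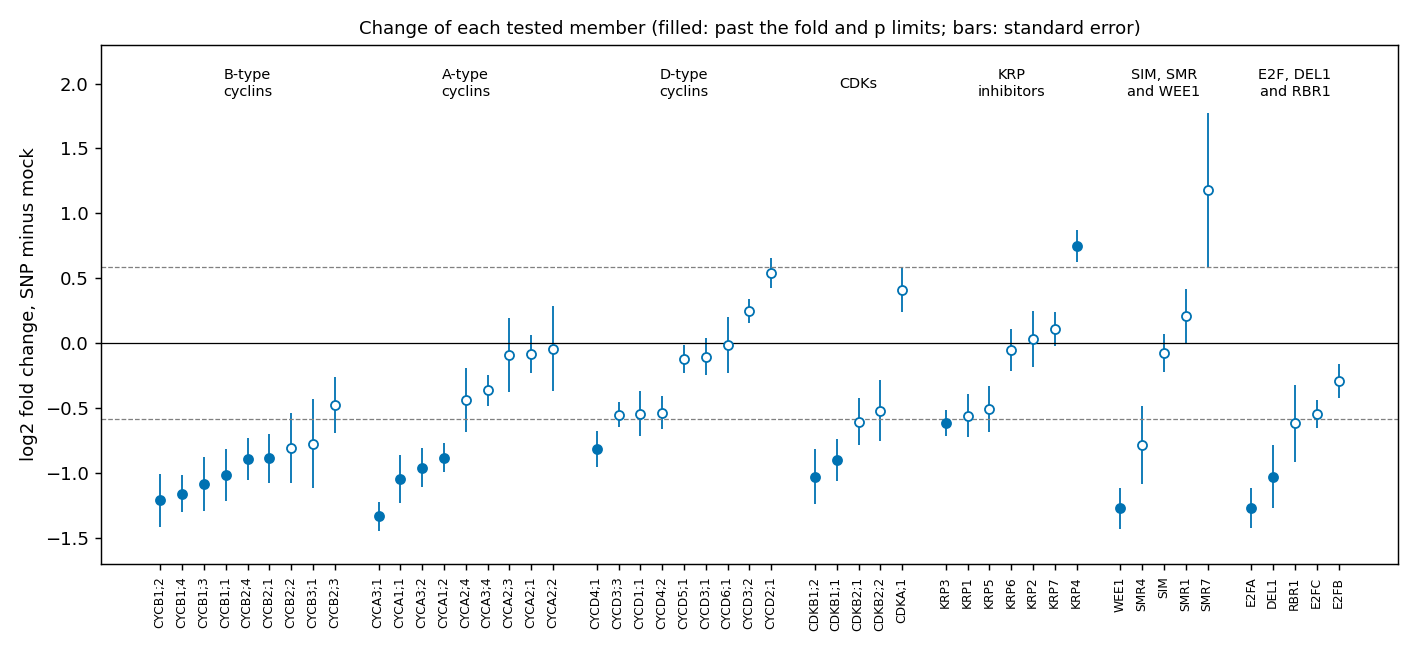
Log2 fold change of the 49 tested members, SNP minus mock, by family and ordered by value within each. Bars are the limma standard error, filled points passed the fold and p limits, and dashed lines mark the 1.5-fold limit. Filled points lie below 0 in every family, with *KRP4* as the only one above it.

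The 9 B-type cyclins moved most. Of these, 6 fell past the limits, all 4 of the B1 group among them, against 6.40% of all tested genes. The family median was -0.89. Without Mock 1, all 9 passed, against 7.43% of all tested genes, with a median of -1.04. B-type cyclins are transcribed around G2 and mitosis in many plants, and MYB3R factors bind their promoters at the mitosis-specific activator element, whose core letters are AACGG. The 250 bases before the annotated gene start of the B1 genes are shown because all 4 fell, by 1.02 to 1.21 on the log2 scale, while their promoters differ in this core. They were read from RefSeq's TAIR10.1 genome and annotation and run 5′ to 3′ on the gene's strand, with each AACGG and its reverse complement CCGTT in capitals. None of the windows overlaps another annotated gene. The genes are AT4G37490, AT5G06150, AT3G11520 and AT2G26760, in the order shown, and the windows lie at chr4:17624309-17624558 (minus strand), chr5:1861704-1861953 (minus), chr3:3627274-3627523 (minus) and chr2:11400868-11401117 (plus).
CYCB1;1: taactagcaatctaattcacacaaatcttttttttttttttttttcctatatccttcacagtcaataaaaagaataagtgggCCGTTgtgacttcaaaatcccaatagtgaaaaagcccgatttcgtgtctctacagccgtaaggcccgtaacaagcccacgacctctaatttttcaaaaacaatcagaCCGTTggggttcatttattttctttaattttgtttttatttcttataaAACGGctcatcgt
CYCB1;2: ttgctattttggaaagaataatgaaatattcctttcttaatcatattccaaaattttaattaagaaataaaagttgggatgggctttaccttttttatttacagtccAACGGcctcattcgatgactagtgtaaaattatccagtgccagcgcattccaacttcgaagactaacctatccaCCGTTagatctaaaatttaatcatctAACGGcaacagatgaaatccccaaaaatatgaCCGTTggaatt
CYCB1;3: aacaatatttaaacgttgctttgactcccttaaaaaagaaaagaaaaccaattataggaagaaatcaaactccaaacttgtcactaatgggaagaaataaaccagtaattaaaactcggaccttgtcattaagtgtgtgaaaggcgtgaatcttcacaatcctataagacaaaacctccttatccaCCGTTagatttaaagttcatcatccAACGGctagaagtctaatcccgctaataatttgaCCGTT
CYCB1;4: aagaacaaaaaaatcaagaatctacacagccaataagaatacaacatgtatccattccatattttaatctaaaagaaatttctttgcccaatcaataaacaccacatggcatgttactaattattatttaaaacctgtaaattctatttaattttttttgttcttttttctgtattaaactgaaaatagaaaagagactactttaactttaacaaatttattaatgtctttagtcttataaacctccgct

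The first promoter holds 3 cores, 168, 61 and 13 bases before the gene start, the next holds 4 and the one after it 3. In these latter promoters, the 3 cores nearest the gene alternate in strand, with AACGG in the middle and its reverse complement on either side, starting at 69, 43 and 11 bases and at 64, 39 and 5 bases. The promoters of the B2 cyclins AT2G17620, AT4G35620 and AT1G20610 hold 3 cores each in the same order of strands, between 172 and 47 bases before the gene. The promoter of the fourth B1 cyclin, and those of AT1G76310 and AT1G16330, hold no core in this window. Of 24183 promoters of the same length, 21.2% hold at least 1 core on either strand and 3.79% at least 2, as do 39.2% and 25.5% of the 51 member promoters. At least 2 cores stood before 7 of the 17 members that fell and before 6 of the other 32 tested members. The median log2 fold change was -0.88 in the 13 tested members with at least 2 cores and -0.53 in the other 36. In tested genes of all kinds it was -0.03 in the 785 with at least 2 cores and 0.06 in the other 18079. Family differs between the member groups, as 6 of the 13 were B-type cyclins, 4 A-type cyclins and 3 KRP genes. Among the B-type cyclins, those without a core changed by -1.16, -0.89 and -0.78, and those with cores by -1.21 to -0.48. These matches are descriptions of letters, not of bound sites.

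The first of these genes, AT4G37490, is the mitotic cyclin widely used as a marker of dividing cells and known to be induced by DNA damage. It had 42.6, 41.5 and 48.5 TPM in Mock 1, 2 and 3 and 18.5, 30.2 and 17.9 TPM in SNP 1, 2 and 3. All SNP samples were below all mock samples, with SNP 2 nearest to them. The log2 fold change was -1.02 ± 0.20 (SE, limma adjusted p = 0.0106). The most abundant B-type cyclin, AT5G06150, had 90.7, 98.6 and 117 TPM in mock and 33.8, 58.4 and 41.8 TPM in SNP. It fell by 1.21 on the log2 scale, with an SE of 0.20 (limma, adjusted p = 0.00569), and again SNP 2 was the highest of the treated samples. The gene AT3G11520 was less abundant, with 18.0, 18.2 and 23.1 TPM in mock and 7.29, 12.4 and 7.98 TPM in SNP, and its log2 fold change was -1.09 ± 0.21 (SE, limma adjusted p = 0.00929). The fourth, AT2G26760, the B1 gene without a core in the window shown, had 39.1, 36.0 and 40.1 TPM in mock and 14.6, 20.8 and 15.9 TPM in SNP. Its change of -1.16 ± 0.14 (SE, limma adjusted p = 0.00179) lay between those of the 3 genes with cores.

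In the B2 group, whose members also act at G2 and mitosis, 2 of 4 genes fell past the limits. Over all tested genes the share was 6.40%. *CYCB2;1* (AT2G17620) had 9.17, 11.0 and 12.1 TPM in mock and 4.48, 7.21 and 5.27 TPM in SNP, a log2 fold change of -0.89 ± 0.19 (SE, limma adjusted p = 0.0135) that lost its call without Mock 3, and whose adjusted p was 0.0505 and 0.0577 without SNP 1 or SNP 3. *CYCB2;4* (AT1G76310) had 38.1, 39.8 and 46.4 TPM in mock and 18.4, 27.3 and 21.3 TPM in SNP, with a change of -0.89 ± 0.16 (SE, limma adjusted p = 0.00709). In both genes the groups were separate. The groups overlapped in the other 3 B-type cyclins, with Mock 1 the lowest mock sample and SNP 2 the highest treated one in each. *CYCB2;2* (AT4G35620) averaged 22.3 ± 6.21 TPM in mock and 12.5 ± 3.71 TPM in SNP (SD, n = 3), with a log2 fold change of -0.81. *CYCB2;3* (AT1G20610) averaged 30.4 ± 6.57 and 21.7 ± 5.06 TPM, with a change of -0.48. *CYCB3;1* (AT1G16330), which in *Arabidopsis* is linked to the meiotic spindle and cell wall formation, averaged 16.7 ± 6.81 and 9.18 ± 2.76 TPM, with a change of -0.78. These 3 passed the limits only in fits that left out Mock 1 or, for AT4G35620, also in 5 other alternatives.

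**Figure D2:**
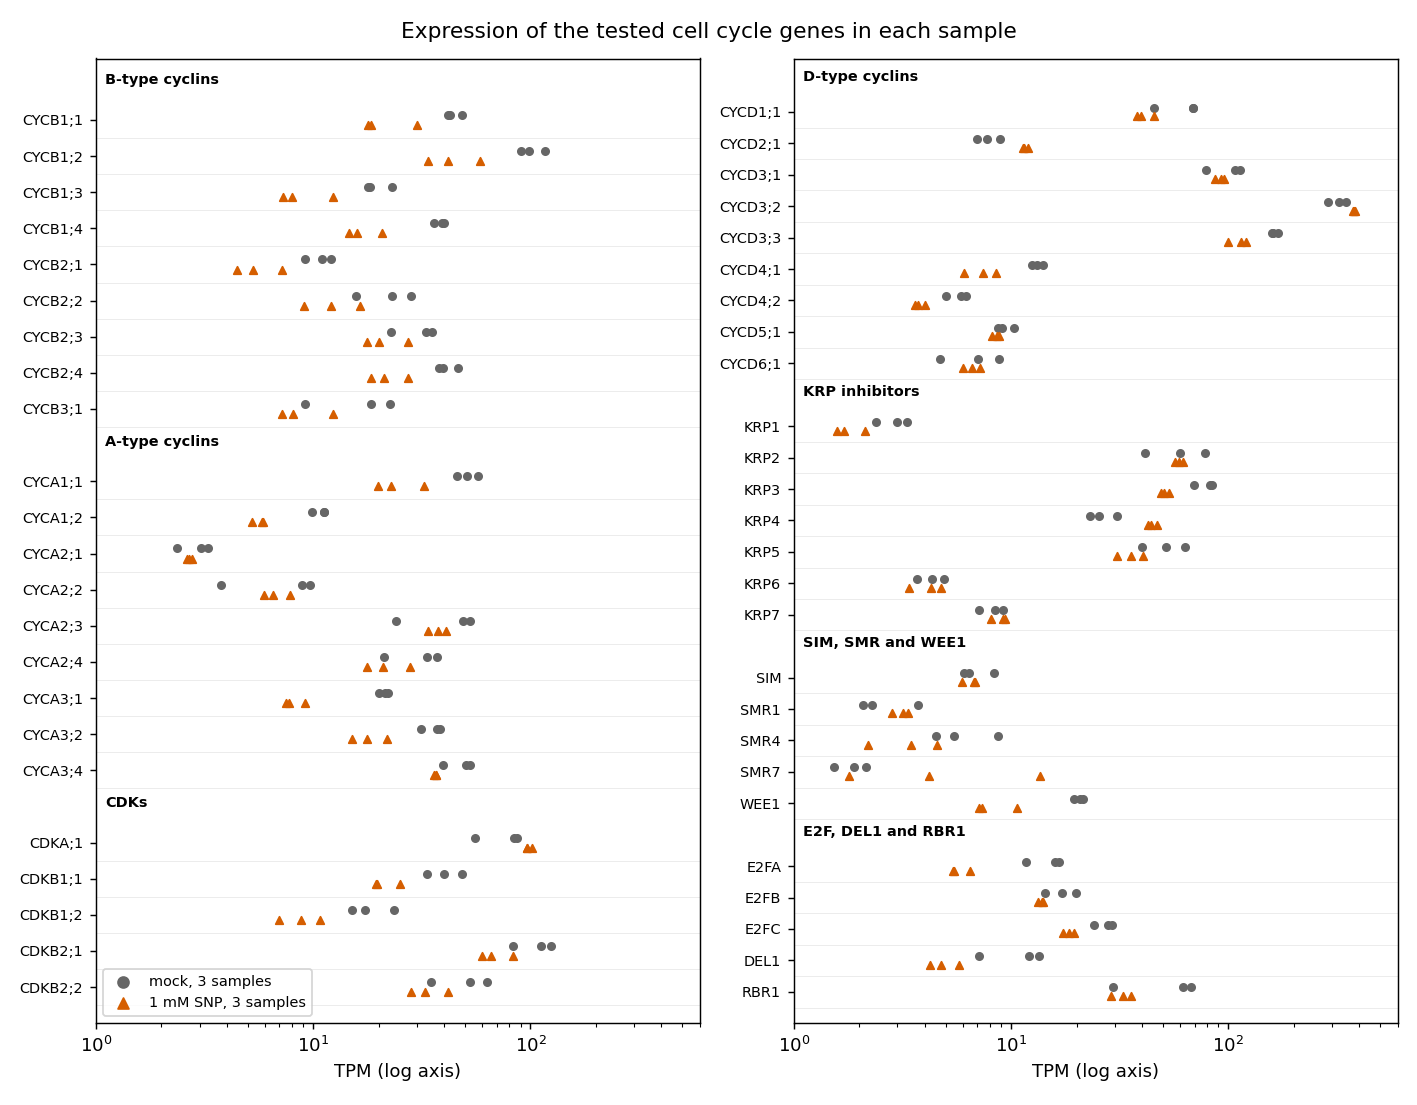
TPM of the 49 tested members in each sample on a log axis, by family, with 3 mock samples (grey circles) and 3 SNP samples (orange triangles). The treated samples lie to the left of the mock samples for the B1 cyclins, *WEE1* and *E2FA*, and to the right for *KRP4*.

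With all 6 samples, the A-type cyclins split by group. The A1 group and most of the A3 group fell, 4 of the 9 tested genes in all, against 6.40% of all tested genes. The 4 A2 cyclins overlapped between mock and SNP. Without Mock 1, 5 of the 9 passed and 8 were lower with an adjusted p under 0.05 (limma). The shares of all tested genes were then 7.43% and 21.1%. The largest fall of any member was that of *CYCA3;1* (AT5G43080), a cyclin expressed around the G1 to S transition. It had 22.1, 20.0 and 21.4 TPM in mock and 7.49, 9.14 and 7.76 TPM in SNP, a log2 fold change of -1.33 ± 0.11 (SE, limma adjusted p = 0.0004). The highest treated sample was far below the lowest mock sample. Its neighbour in the family, *CYCA3;2* (AT1G47210), had 31.4, 37.1 and 38.4 TPM in mock and 15.2, 21.8 and 17.6 TPM in SNP, with a change of -0.96 ± 0.15 (SE, limma adjusted p = 0.00466). *CYCA3;4* (AT1G47230), the most abundant A3 gene after treatment, had 39.6, 50.4 and 52.9 TPM in mock and 36.9, 36.8 and 36.2 TPM in SNP. Its groups did not overlap either, but the change of -0.36 ± 0.12 did not pass (SE, limma adjusted p = 0.0599). The last 2 genes and AT1G47220, which had at most 1 read in a sample, lie side by side on chromosome 1, and how the authors assigned reads that match several copies is not given in the sources used here.

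*CYCA1;1* (AT1G44110), a mitotic A-type cyclin, had 45.8, 50.9 and 57.6 TPM in mock and 19.9, 32.3 and 22.9 TPM in SNP. Its log2 fold change was -1.05 ± 0.19 (SE, limma adjusted p = 0.00703), and SNP 2 was again the highest of the treated samples. *CYCA1;2* (AT1G77390), known as *TAM* for its part in the meiotic divisions, had 11.2, 11.2 and 9.92 TPM in mock and 5.87, 5.21 and 5.79 TPM in SNP, with a change of -0.88 ± 0.11 (SE, limma adjusted p = 0.00195). For this gene SNP 2 was the lowest treated sample. The A2 cyclins, which with CDKB1 hold back endoreduplication, had log2 fold changes of -0.08 for *CYCA2;1*, -0.04 for *CYCA2;2*, -0.09 for *CYCA2;3* and -0.44 for *CYCA2;4* (AT5G25380, AT5G11300, AT1G15570 and AT1G80370), with SEs of 0.15, 0.33, 0.28 and 0.25. None passed either rule in limma, and none had an unadjusted p under 0.05. In each of the 4, Mock 1 was the lowest mock sample. For AT1G15570 it had 24.1 TPM, against 49.2 and 52.8 TPM in Mock 2 and 3 and 33.7, 40.9 and 37.6 TPM in SNP. Without Mock 1 the changes were -0.21, -0.44, -0.45 and -0.68, of which AT1G80370 passed the limits and AT5G11300 and AT1G15570 the adjusted p (limma, adjusted p = 0.0362 and 0.0107).

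The D-type cyclins, the link between growth signals and cell cycle entry, moved in both directions. Of 9 tested, 1 fell past the limits (11.1%), against 6.40% of all tested genes, and the median was -0.12. With an adjusted p under 0.05 (limma), 3 were lower, that gene among them, and 1 was higher, against 13.0% and 16.6% of all tested genes. Without Mock 1, 3 fell past the limits, against 7.43% of all tested genes. *CYCD3;2* (AT5G67260) was the most abundant of all members, with 289, 349 and 322 TPM in mock and 384, 378 and 375 TPM in SNP. The CYCD3 genes mediate cytokinin effects on division in shoots. All 3 treated samples were above all mock samples, but the log2 fold change of 0.25 ± 0.09 did not pass (SE, limma adjusted p = 0.089). Its paralog *CYCD3;3* (AT3G50070) went the other way, with 170.0, 161 and 159.6 TPM in mock and 115, 121 and 99.6 TPM in SNP, a change of -0.55 ± 0.10 that passed the adjusted p only (SE, limma adjusted p = 0.0066). *CYCD3;1* (AT4G34160) averaged 99.7 ± 18.2 TPM in mock and 91.6 ± 4.30 TPM in SNP (SD, n = 3), with a change of -0.11. The share of AT5G67260 in the summed TPM of the D-type cyclins was 45.3% to 47.9% in mock and 55.6% to 58.8% in SNP.

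The D-type cyclin that fell past the limits was *CYCD4;1* (AT5G65420), which acts with CDKs in early root and stomatal divisions. It had 14.0, 12.5 and 13.1 TPM in mock and 7.45, 8.53 and 6.10 TPM in SNP, a log2 fold change of -0.82 ± 0.14 (SE, limma adjusted p = 0.00618). The close relative *CYCD4;2* (AT5G10440) had 5.03, 6.23 and 5.88 TPM in mock and 3.61, 3.71 and 4.01 TPM in SNP, with a change of -0.53 ± 0.13 that passed the adjusted p (SE, limma adjusted p = 0.019), but with any 1 sample other than Mock 1 left out the adjusted p was 0.0524 to 0.0801. Both genes were separate between the groups. *CYCD2;1* (AT2G22490), a sugar-responsive D-type cyclin, was the only cyclin with higher values past the adjusted p. It had 7.0, 7.72 and 8.85 TPM in mock and 11.5, 11.4 and 12.0 TPM in SNP, a change of 0.54 ± 0.12 (SE, limma adjusted p = 0.0139) that fell short of the 1.5-fold limit. Without SNP 1 or SNP 3 the adjusted p was 0.0588 and 0.0714 in limma. Every treated sample was above every mock sample. *CYCD1;1* (AT1G70210) averaged 60.9 ± 13.4 TPM in mock and 41.0 ± 3.82 TPM in SNP (SD, n = 3), with a change of -0.55 that passed the limits only without Mock 1, with the length trend removed or with another scaling. *CYCD5;1* (AT4G37630) averaged 9.35 ± 0.828 and 8.54 ± 0.342 TPM (SD, n = 3), with a change of -0.12. *CYCD6;1* (AT4G03270), a cyclin of formative root divisions, averaged 6.84 ± 2.02 and 6.59 ± 0.575 TPM (SD, n = 3), with a change of -0.01. Mock and treated samples overlapped in AT4G37630 and AT4G03270. In AT1G70210 they did not, but only just, with 45.5 TPM in Mock 1 and 45.3 TPM in SNP 2.

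Among the kinases, the B-type CDKs had lower values and CDKA did not. *CDKA;1* (AT3G48750), the kinase that partners D- and A-type cyclins throughout the cycle, had 55.6, 86.4 and 84.0 TPM in mock and 96.8, 101 and 96.7 TPM in SNP. The treated samples were the higher ones, but Mock 1 was far below Mock 2 and 3, and the log2 fold change of 0.41 ± 0.17 did not pass (SE, limma adjusted p = 0.113). Without Mock 1 the change of this gene was smaller, at 0.20, but passed the adjusted p (limma, adjusted p = 0.0331). *CDKB1;1* (AT3G54180), a mitotic kinase that also restrains endoreduplication, had 33.4, 39.9 and 48.3 TPM in mock and 19.6, 25.1 and 19.5 TPM in SNP, with a change of -0.90 ± 0.16 (SE, limma adjusted p = 0.00776). *CDKB1;2* (AT2G38620) had 15.1, 17.3 and 23.6 TPM in mock and 6.98, 10.8 and 8.84 TPM in SNP, with a change of -1.03 ± 0.21 (SE, limma adjusted p = 0.0117). Both B1 kinases fell with separate groups, and Mock 3 was the highest sample for each. The CDKB2 kinases are needed for an organised shoot meristem. *CDKB2;1* (AT1G76540) had 82.8, 112 and 125 TPM in mock and 59.6, 82.8 and 66.1 TPM in SNP, so that Mock 1 and SNP 2 were almost equal. Its change of -0.60 ± 0.18 passed the adjusted p but not the limit on the unadjusted p (SE, limma adjusted p = 0.0452). The adjusted p was over 0.05 in 6 of 16 alternatives, namely with no filter, with eBayes without trend, and without Mock 2, Mock 3, SNP 1 or SNP 3 (0.0555 to 0.147 in limma). *CDKB2;2* (AT1G20930) averaged 50.2 ± 14.1 TPM in mock and 34.3 ± 6.83 TPM in SNP (SD, n = 3), with a change of -0.52 that did not pass. Without Mock 1 the changes of the pair were -0.77 and -0.76, and both passed the limits.

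The 7 KRP inhibitors, which bind cyclin-CDK complexes and slow entry into division, had a median of -0.05, or 0.04 without Mock 1, and went in both directions. Past the limits, 1 of the 7 was lower (14.3%) and 1 was higher, against 6.40% and 10.5% of all tested genes. *KRP4* (AT2G32710), which is carried on mitotic chromosomes and sets the size at which meristem cells enter S phase, was the only member to rise past the limits. It had 23.0, 30.8 and 25.3 TPM in mock and 43.8, 46.8 and 42.6 TPM in SNP. The 3 treated values were close together and above all mock values, a log2 fold change of 0.75 ± 0.12 (SE, limma adjusted p = 0.00526), and it passed in all 16 alternative fits. Its share of the summed KRP level was 8.67%, 12.9% and 13.3% in mock and 20.6%, 23.4% and 21.0% in SNP. *KRP3* (AT5G48820), the most abundant KRP in mock, fell from 83.6, 82.4 and 69.2 TPM to 53.4, 50.6 and 48.9 TPM, a change of -0.61 ± 0.10 close to the 1.5-fold limit (SE, limma adjusted p = 0.00518). Without Mock 1, Mock 2 or SNP 3 it was -0.56, -0.57 and -0.58, short of that limit. *KRP1* (AT2G23430), whose promoter holds 6 AACGG cores, the most of any member, had 3.33, 2.98 and 2.38 TPM in mock and 1.70, 2.13 and 1.58 TPM in SNP, with a change of -0.56 ± 0.17 that passed the adjusted p (SE, limma adjusted p = 0.0426). It rested on 69 to 169 reads per sample, and the adjusted p was over 0.05 with no filter and with any 1 sample other than Mock 3 left out (0.0508 to 0.151 in limma). *KRP5* (AT3G24810), for which Mock 3 reached into the treated range, averaged 51.5 ± 11.4 TPM in mock and 35.7 ± 4.89 TPM in SNP (SD, n = 3). *KRP2* (AT3G50630) averaged 59.9 ± 18.5 and 59.3 ± 2.31 TPM, *KRP6* (AT3G19150) 4.31 ± 0.614 and 4.15 ± 0.704 TPM, and *KRP7* (AT1G49620) 8.24 ± 1.05 and 8.89 ± 0.668 TPM (SD, n = 3 each). Their changes were 0.03, -0.05 and 0.11, all with overlapping groups, and the sign for *KRP2* turned under both other scalings.

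Among the SIM/SMR inhibitors and *WEE1*, 1 of 5 tested genes passed, with lower values (20%), against 6.40% of all tested genes. *WEE1* (AT1G02970), the kinase that holds the cycle when DNA replication is disturbed, had 19.5, 20.8 and 21.5 TPM in mock and 7.11, 10.6 and 7.36 TPM in SNP. Its log2 fold change of -1.27 ± 0.16 (SE, limma adjusted p = 0.00197) came with separate groups. *SMR7* (AT3G27630), an inhibitor induced by reactive oxygen and DNA damage, had 2.14, 1.90 and 1.54 TPM in mock and 4.18, 13.6 and 1.79 TPM in SNP. SNP 2 was far above the rest and SNP 3 lay within the mock range, and the change of 1.18 ± 0.59 did not pass (SE, limma adjusted p = 0.175). Without SNP 3 it was 1.79 and passed (limma, adjusted p = 0.0462), with the treated group then of 2 samples. *SIM* (AT5G04470), which starts endoreduplication in leaf hairs, averaged 6.94 ± 1.21 and 6.52 ± 0.483 TPM (SD, n = 3). *SMR1* (AT3G10525), which directs giant cells in sepals, averaged 2.71 ± 0.907 and 3.13 ± 0.26 TPM (SD, n = 3). *SMR4* (AT5G02220) averaged 6.24 ± 2.22 and 3.41 ± 1.19 TPM (SD, n = 3), with a change of -0.78 that did not pass (limma, adjusted p = 0.0926). The promoter of *SMR7* holds a palindrome of CTT and AAG with 7 free bases between them, the letters bound by the DNA damage factor SOG1, as do 15.7% of the 51 member promoters and 9.59% of all 24183, *SMR4* also among them.

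In the E2F-RBR group, 2 of 5 genes fell past the limits and 1 more had an adjusted p under 0.05 (limma). The shares of all tested genes lower by these rules were 6.40% and 13.0%. The family median was -0.62. Without Mock 1, 4 of the 5 fell past the limits, against 7.43% of all tested genes, with a median of -0.99. *E2FA* (AT2G36010), an activator of S-phase genes that works with the partner DPA, had 11.8, 15.9 and 16.5 TPM in mock and 5.46, 6.47 and 5.38 TPM in SNP. All treated samples lay well below the lowest mock sample, a log2 fold change of -1.27 ± 0.16 (SE, limma adjusted p = 0.00185). *E2FC* (AT1G47870), described mainly as a repressor of division, had 24.0, 29.2 and 28.1 TPM in mock and 18.4, 19.4 and 17.4 TPM in SNP, with a change of -0.54 ± 0.11 that passed the adjusted p (SE, limma adjusted p = 0.0105), an adjusted p that became 0.0574 without SNP 3. *DEL1* (AT3G48160), an atypical E2F that delays endoreduplication, had 7.11, 12.1 and 13.4 TPM in mock and 4.77, 5.77 and 4.26 TPM in SNP. Its change was -1.03 ± 0.24 (SE, limma adjusted p = 0.0194), with Mock 1 closer to the treated samples than to the other mock samples, and the call was lost without Mock 2, Mock 3, SNP 1 or SNP 3 (adjusted p 0.0581, 0.0604, 0.066 and 0.0762 in limma). *E2FB* (AT5G22220) averaged 17.1 ± 2.76 and 13.8 ± 0.429 TPM (SD, n = 3), with a change of -0.29 that did not pass. *RBR1* (AT3G12280), the repressor that D-type cyclin kinases switch off, had 29.5, 67.6 and 62.0 TPM in mock and 29.0, 35.6 and 32.6 TPM in SNP. Mock 1 lay inside the treated range, and the change of -0.62 ± 0.30 did not pass (SE, limma adjusted p = 0.163). *RBR1* has 3850 bases of exon, the longest of the members, and its change was -0.99 without Mock 1 and -0.79 with the length trend removed (limma, adjusted p = 0.000909 and 0.00458). The words TTTCCCGC, TTTGGCGC, TTTGCCGC and TTTCGCGC, searched as E2F sites on both strands, occurred in 4 of the 51 member promoters, *RBR1* and *SMR7* among them, against 1.48% of all promoters, and in neither *E2FA* nor *WEE1*.

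Summed over each family, TPM showed which transcripts made up the pool. The B-type cyclins summed to 285, 319 and 373 TPM in mock and 131, 212 and 150.2 TPM in SNP, a ratio of means of 0.505. The A-type cyclins summed to 249.7 ± 42.8 and 163 ± 19.9 TPM (ratio 0.651), the CDKB kinases to 216 ± 46.8 and 134 ± 23.8 TPM (0.621), and E2F, DEL1 and RBR1 to 123 ± 31.5 and 75.3 ± 5.17 TPM (0.613), each given as mean ± SD of n = 3. The treated sums of these 4 families were below every mock sum. The D-type cyclins, at 687 ± 56.3 and 661 ± 20.9 TPM, held the largest sum and a ratio of 0.962, with overlapping groups, and so did the KRP inhibitors, at 232 ± 38.1 and 205 ± 6.42 TPM with a ratio of 0.886 (SD, n = 3 each). The sums of *CYCD3* genes alone were 583 ± 40.9 and 582 ± 17.9 TPM (SD, n = 3), with one of the 2 most abundant genes higher in SNP and the other lower.

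**Figure D3:**
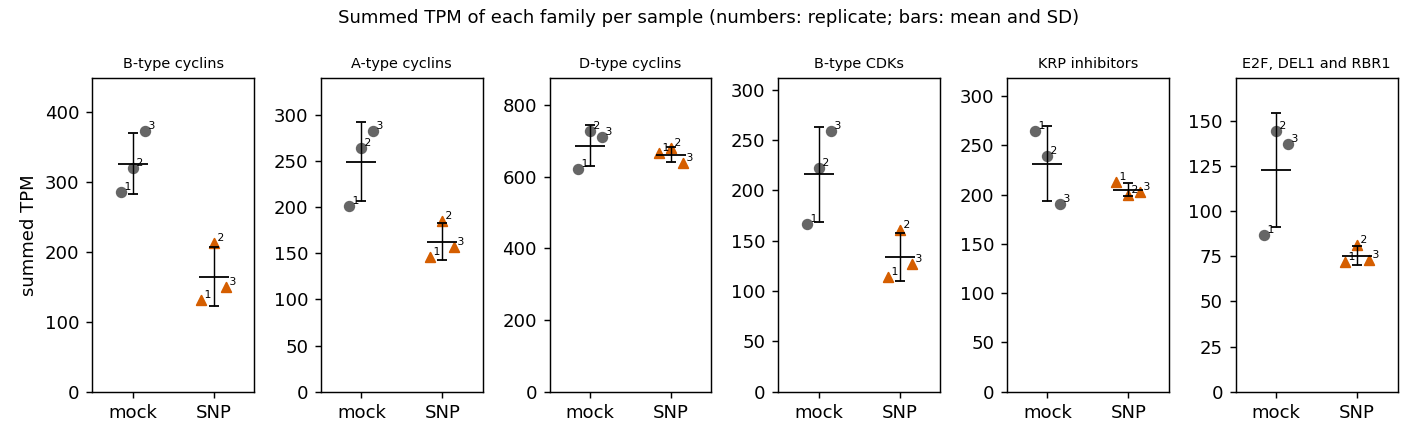
Summed TPM of 6 families in each sample, with the replicate number beside each point and bars for the mean and SD of 3 samples. The B-type cyclin sum was 285 to 373 TPM in mock and 131 to 212 TPM in SNP, and the D-type cyclin and KRP sums overlapped.

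The replicates shared an order across many members. This order was not counted over all tested genes, so it cannot be called particular to the members. In the fifth of all genes with the longest exons, the median deviation was lowest in Mock 1 (-0.43). It was highest in SNP 2 (0.135), with Mock 2 close to it (0.128). In the fifth with the shortest exons, SNP 2 was the lowest (-0.0545) and Mock 1 the highest (0.0868). Whether exon length bears on the order in the members was not tested. Among the 17 members that fell, SNP 2 was the highest treated sample in 15, Mock 3 the highest mock sample in 13 and Mock 1 the lowest in 11. Over the 49 tested members, Mock 1 was the lowest mock sample in 33 and SNP 2 the highest treated sample in 35. With Mock 1 left out, *RBR1*, *E2FC*, both CDKB2 genes, AT4G35620, AT1G20610, AT1G16330, AT1G80370, AT1G70210 and AT5G10440 passed the limits as well, and *KRP3* no longer did.

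Other cell cycle lists give the setting of these genes. Of all tested genes, 6.40% fell past the limits, and 7.43% without Mock 1. All 12 of the DNA replication genes, many of them known E2F targets, fell past the limits, with a median log2 fold change of -1.54, and the largest falls were those of the sliding clamp *PCNA1* (-2.19) and the helicase subunits *MCM6* (-2.00), *MCM2* (-1.86) and *MCM3* (-1.86). Of 16 mitosis and cytokinesis genes, 8 fell, with a median of -0.96, among them the cohesion factor *PANS1* (-1.48), the cytokinetic kinesin *HINKEL* (-1.32), the spindle checkpoint gene *BUBR1* (-1.32) and the Aurora kinase *AUR2* (-1.27). Of 9 genes listed for the anaphase-promoting complex, which destroys mitotic cyclins, 4 fell, with a list median of -0.60. The falls were led by *CDC20.1* (-1.05) and *UVI4* (-1.03), followed by *UBC20* (-0.79) and *CDC20.2* (-0.73). Among 11 E2F partners and other CDK regulators, 2 fell, the CDK subunit *CKS2* (-1.08) and the atypical E2F *DEL3* (-0.66), and the median was -0.41. Of 9 further SMR inhibitors none fell past the limits in limma, with 1 lower at an unadjusted p under 0.05, and the 1 that rose, *SMR8* (0.74), is a share near the 10.5% of all tested genes. Their median was -0.23. No MYB3R factor of the 4 tested passed the limits in limma, and 1 of them, the activator *MYB3R4*, had an unadjusted p under 0.05, with a change of -0.78 (limma, adjusted p = 0.0453). Without Mock 1, the counts that fell were 12 of the replication genes, 14 of the mitosis genes, 5 of the anaphase-promoting complex genes, 4 of the E2F partners and CDK regulators and 1 MYB3R factor. Among the DNA damage targets of *SOG1*, *BARD1* fell past the limits (-1.49). *GMI1*, another such target, had 4.90, 9.0 and 7.74 TPM in mock and 12.5, 23.8 and 10.1 TPM in SNP, highest in SNP 2 as for *SMR7*, and did not pass (limma, adjusted p = 0.0665).

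**Figure D4:**
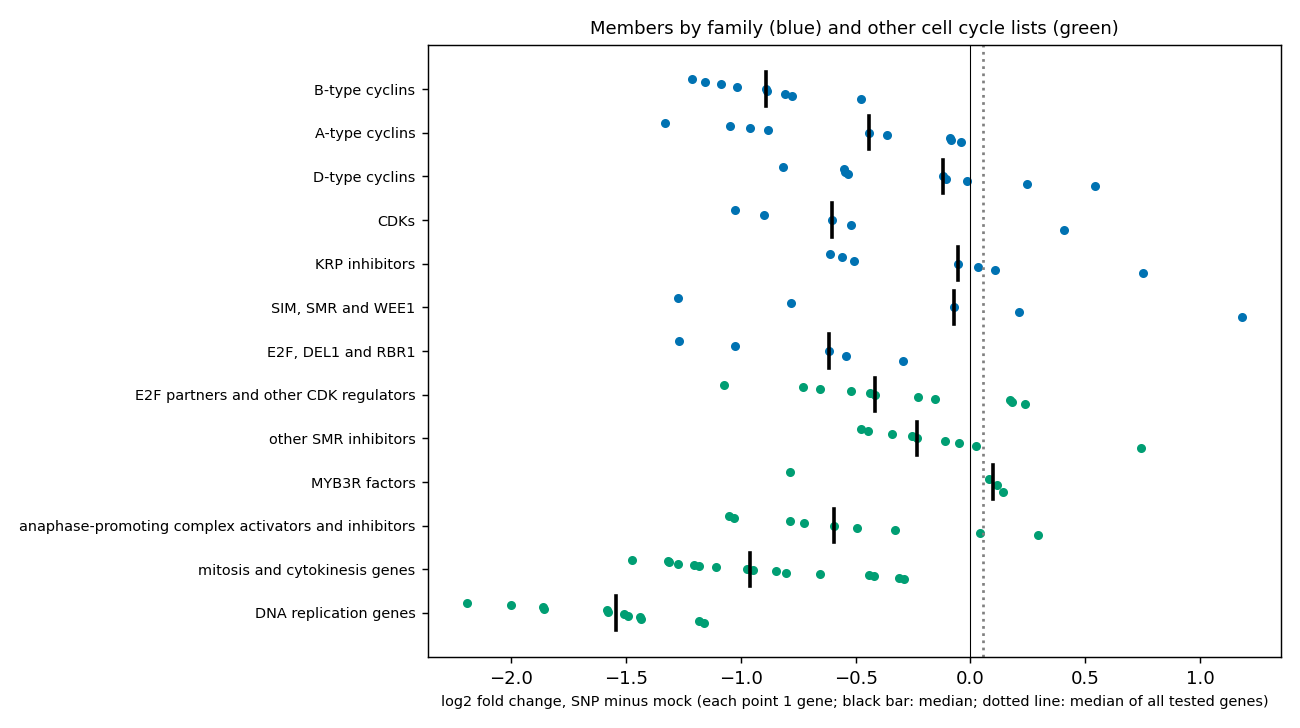
Log2 fold change of each tested gene, SNP minus mock, for the 7 member families (blue) and 6 other cell cycle lists (green), with the median of each as a black bar and the median of all tested genes, 0.06, as a dotted line. DNA replication genes lie furthest to the left, with a median of -1.54, ahead of the mitosis list at -0.96 and the B-type cyclins at -0.89.

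Markers of other cells in the apices moved as follows, and their part in the results was not tested. Summed TPM of 4 leaf green tissue genes was 4587 to 5283 in mock and 4802 to 5638 in SNP. That of 4 meristem genes was 199 to 239 and 206 to 238, and of these *UFO*, a floral meristem gene, rose by 0.68 on the log2 scale. The 4 floral organ genes summed to 16.4 to 23.5 TPM in mock and 6.16 to 15.0 TPM in SNP, with no gene past the limits in limma and *AP3* and *PI* at an unadjusted p under 0.05. The 2 listed tapetum genes of 3 summed to 0.216 to 4.02 TPM and 0.127 to 6.16 TPM, with *A9* at 0 in 3 samples. The 2 trichome genes summed to 13.4 to 23.7 TPM and 17.9 to 26.3 TPM, and of these *GL1* fell by 0.83. The 3 vascular genes summed to 9.88 to 13.1 TPM and 14.6 to 18.3 TPM, and of these *VND7* rose by 1.07, to between 1.70 and 3.01 TPM.

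**Figure D5:**
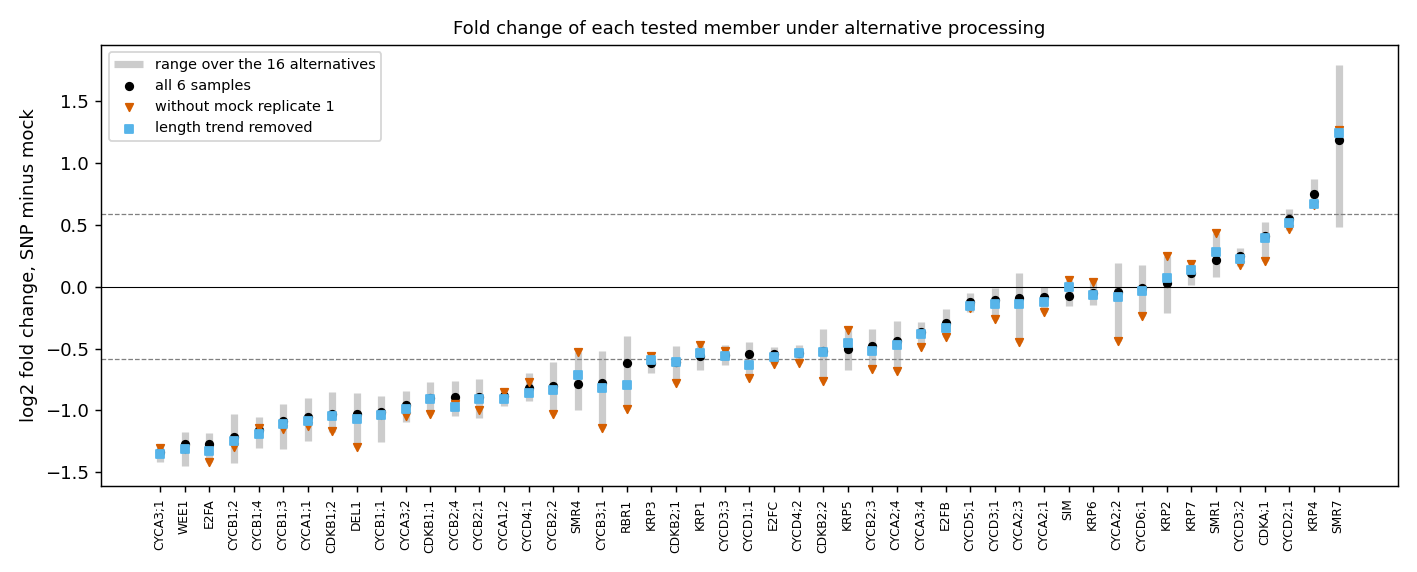
Log2 fold change of the 49 tested members with all 6 samples (black), without Mock 1 (orange) and with the trend along exon length removed (light blue), over the range of 16 alternative fits (grey bars). The largest fall, that of the A3 cyclin AT5G43080, and the changes of *WEE1*, *E2FA* and *KRP4* stay beyond the 1.5-fold lines, and *RBR1* and *SMR7* have wide ranges.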

How the data were processed

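Shoot apices of *ap1/cal* plants gave 3 mock and 3 SNP samples, grouped by the sample labels, with the replicates described in the study's methods as biological. The authors prepared strand-specific libraries, used STAR with the TAIR10 genome, and the deposited TPM values are divided by gene length and scaled to the same sum per sample. FastQC and DESeq2 also stand in the submitters' processing notes. The counting tool and gene lengths are not given in the sources used here. The table also holds the authors' own fold changes, p-values and adjusted p-values, which were not used. Seedling RNA-seq and methylation data were not analysed here.

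Genes averaging 0.5 TPM or more were fitted with limma 3.58.1 (R 4.3.3, lmFit, then eBayes with its trend option) on log2(TPM + 0.5), with Benjamini-Hochberg adjustment over all 18966 tested genes. The limits of 1.5-fold and an unadjusted p under 0.01 are those of the study's methods. With 3 against 3 samples an exact permutation test cannot give less than 0.1, so none is quoted. Exon lengths and promoters came from RefSeq's TAIR10.1 annotation, which had lengths for 24184 of the 24340 genes, and symbols from RefSeq, where the same locus identifiers are used. Reads per sample, 51879530 to 99089586, were read from the steps of TPM times exon length. Python 3.11.15 with pandas 2.3.3 and numpy 2.4.6 made the tables. The fit and the depth step were tested on simulated data.

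The members, lists, motifs and markers were chosen with earlier results of these data known. Members past the limits or with an adjusted p under 0.05 are named with every sample's value, other tested members with group means or fold changes, members under the filter with their range, and at most 4 genes past the limits per other list, those with the largest change. *STM*, *LFY*, *GMI1*, *MYB3R4*, *AP3*, *PI* and *A9* were named outside this rule, after their values were seen. Alternatives were pseudocounts of 0.1 and 1, no filter or a mean of 1 TPM, 2 other scalings, eBayes without trend or robust, the replicate number as a block, removal of a lowess trend along exon length, each sample left out, a fold limit of 2 and an adjusted p in place of the unadjusted one. The DNA damage list as a whole is not reported here.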

Additional observations from a re-analysis of the deposited data

How the results depend on the processing

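Of 784 comparisons of a member's fold change with an alternative (49 members, 16 alternatives), 726 kept direction and call, 8 lost the call, 36 gained it and 14 turned direction, and where no value is named the cause was not tested. The 17 members lower in SNP were 15 to 26 with each sample left out in turn, the 1 higher member was 1 to 2, with *CYCD2;1* added without Mock 3 and *SMR7* without SNP 3, and those with an adjusted p under 0.05 in limma were 16 to 33 lower and 1 to 4 higher. All genes past the limits were 1701 to 2182 higher and 1010 to 1409 lower. With a fold limit of 2, fewer genes can pass by construction, leaving 10 members lower and 0 higher (limma, with 4 members higher at an unadjusted p under 0.05 and no fold limit), and 1071 genes higher and 403 lower. Direction turned only in members with changes near 0. With a sample left out, *CYCA2;2* ranged from -0.44 to 0.19, *CYCA2;3* from -0.45 to 0.11, *CYCD6;1* from -0.24 to 0.17, *KRP2* from -0.21 to 0.25, *KRP6* from -0.15 to 0.0721 and *SIM* from -0.16 to 0.0553, and *KRP2* was -0.0225 under median-of-ratios and -0.0521 under 75th percentile scaling. Median-of-ratios scaling gave 22 members lower, the 17 and 5 more, and removal of the length trend gave 20.

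The sample labels share replicate numbers between mock and SNP, and no source says that a number marks shared plants or a day. Deviations of same-numbered samples from their group means correlated at 0.30, -0.00 and -0.09, so the numbers were not read as pairs. With the replicate number as a block, 20 members were lower and 1 higher past the limits, the 17 kept among them, with 29 lower and 2 higher at an adjusted p under 0.05, and 2156 genes were higher and 1301 lower. The spread between 3 samples limits the precision of genes such as *KRP1*, *SMR7* and *SMR1*, which had 45 to 276 reads per sample.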
